A study of Danio rerio with 6 samples.

Results

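The miRNAs numbered 17, 18, 19 and 20 were examined in zebrafish ovarian follicular cells. All dre- entries whose number was exactly 17, 18, 19 or 20, of any arm or letter, were taken, and 10 of the 289 listed miRNAs met this rule. They were dre-miR-17a-5p, dre-miR-18a, dre-miR-18c, dre-miR-19a-3p, dre-miR-19b-3p, dre-miR-19c-3p, dre-miR-19d-3p, dre-miR-20a-3p, dre-miR-20a-5p and dre-miR-20b-5p. Small RNA was sequenced from follicular cells of stage IIIa follicles (early vitellogenic, 0.35 to 0.51 mm, not yet able to mature) and stage IIIb follicles (mid to late vitellogenic, 0.52 to 0.65 mm, able to mature in response to hormone), with 3 samples per stage. Each sample pooled the cell layers of 120 to 150 follicles from 3 to 4 female fish bought from a supplier. No treatment is described, and strain and age are not given in the sources used here. The layers were stripped with forceps and not sorted, so the samples are bulk material, in which fewer cells of a type and less RNA per cell cannot be told apart. The values are normalized counts, that is, read counts that the authors divided by a library size parameter of each sample. The submitters labelled the samples by stage and replicate number only.

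In mammals the miR-17/92 clusters are transcribed as 1 long RNA that is cut into several hairpins, and the mature miRNAs fall into families by their seed, bases 2 to 8, which pair with target mRNAs. The clusters are known in mouse and human for promoting cell proliferation and survival. There, miR-17 and miR-20 repress the cell cycle inhibitor CDKN1A, and miR-18a represses the estrogen receptor ESR1. Fish carry several copies of these clusters.

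The mature sequences are shown because the seed groups, and the single bases that separate their members, decide how the counts can be read. They are given 5′ to 3′ as deposited, with T for U and the seed in capitals, and they formed 4 seed groups. The first was shared by miR-17 and miR-20.
dre-miR-17a-5p: cAAAGTGCttacagtgcaggta
dre-miR-20a-5p: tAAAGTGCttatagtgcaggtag
dre-miR-20b-5p: cAAAGTGCtcacagtgcaggtag
The second was that of miR-18.
dre-miR-18a: tAAGGTGCatctagtgcagata
dre-miR-18c: tAAGGTGCatcttgtgtagtta
The third was that of miR-19.
dre-miR-19a-3p: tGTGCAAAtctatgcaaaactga
dre-miR-19b-3p: tGTGCAAAtccatgcaaaactga
dre-miR-19c-3p: tGTGCAAAtccatgcaaaactcg
dre-miR-19d-3p: tGTGCAAAcccatgcaaaactga
The fourth held only the opposite arm of the miR-20a hairpin.
dre-miR-20a-3p: aCTGCAGTgtgagcacttgaag

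The 10 sequences were 22 or 23 nt long, with a GC content of 34.8% to 52.2%. The letters GTGC, read on the mature strand, stood within the first 8 bases of 9 of the 10, and within those of 31 of the 289 listed sequences (10.7%). Of the other listed miRNAs, dre-miR-93 carried the seed of miR-17 and miR-20, and tgu-miR-19a-3p, which the authors found through a zebra finch precursor, carried that of miR-19. Within a seed group the sequences were close to each other. Counting positions from 1 at the 5′ end, dre-miR-19a-3p differed from dre-miR-19b-3p by T11C only, dre-miR-19b-3p from dre-miR-19d-3p by T9C only, and dre-miR-19b-3p from dre-miR-19c-3p by G22C and A23G. dre-miR-17a-5p differed from dre-miR-20b-5p by T10C and by 1 base in length. dre-miR-18a differed from dre-miR-18c by A13T, C17T and A20T. The authors allowed 1 mismatch and differing lengths at both ends in the alignment, so reads could have been split between the members that differ by 1 base. A read that ends before base 22 has the same sequence in dre-miR-19b-3p and dre-miR-19c-3p, so reads could have been split between these as well.

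By the gene order of the GRCz12tu assembly, the hairpin genes of the members lay at 4 loci. The chromosome 1 locus held mir92a-1, dre-mir-19b, dre-mir-20a, dre-mir-19a, mir18a and mir17a-1 next to each other, within 1 annotated long non-coding RNA gene. On chromosome 9, mir17a-2 lay near mir92a-2, so dre-miR-17a-5p can come from chromosome 1 or 9. Chromosome 14 held 2 loci. At one of them, mir19c, mir20b and mir18c lay beside mir363, and at the other mir19d lay between mir25 and mir93 within mcm7, a gene for a subunit of the replicative helicase. Each seed group was therefore spread over more than 1 locus, except for dre-miR-20a-3p.

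By their mean, the members ranked from 28 to 211 among the 289 listed miRNAs, with a median rank of 111.5. Summed over the 10, their share of all normalized counts was 0.804% ± 0.185 (SD, n = 6 samples), and all 10 were above 0 in every sample. This share was 0.801%, 0.977% and 1.02% in stage IIIa and 0.827%, 0.655% and 0.539% in stage IIIb, which overlapped. A single miRNA, dre-miR-19b-3p, made up 53.9% of the counts of the 10, as the mean of the samples. With the replicates always given in the order 1, 2, 3, its normalized counts were 6937, 11623 and 11038 in stage IIIa and 8679, 10027 and 9113 in stage IIIb. The stages overlapped, and the lowest value was that of stage IIIa replicate 1. With a mean of 9569 normalized counts it ranked 28 among the 289, and no other member ranked above 71.

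**Figure D1:**
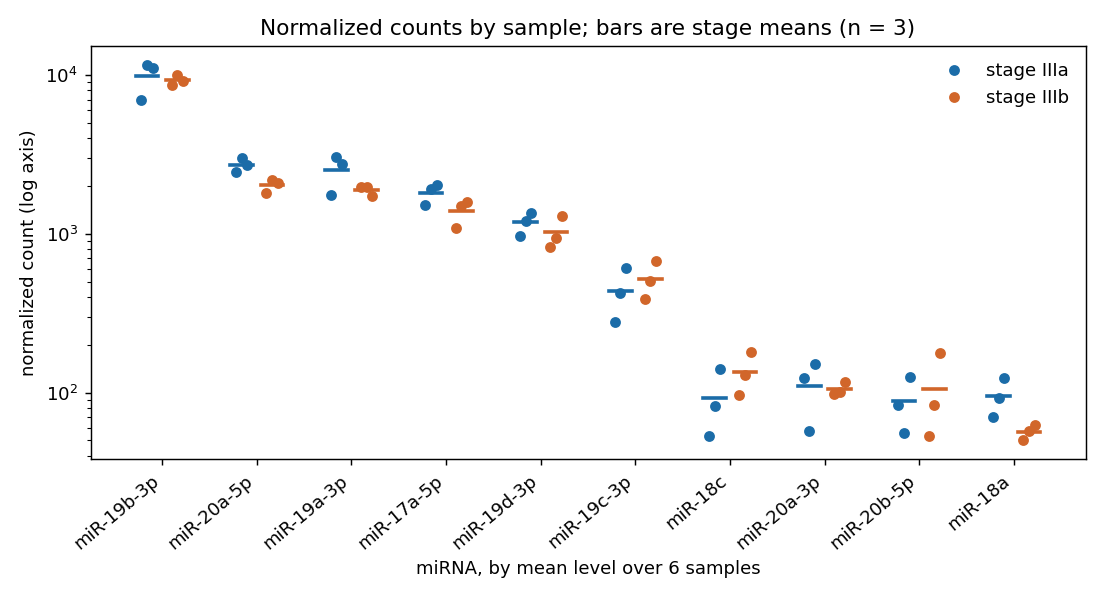
Normalized counts (log axis) of the 10 miRNAs in each of the 6 samples, ordered by their mean. Points are samples, blue for stage IIIa and orange for stage IIIb, and bars are stage means (n = 3). dre-miR-19b-3p lies above all others, and the stages do not overlap for dre-miR-20a-5p and dre-miR-18a.

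The next 4 members ranged from 823 to 3031 normalized counts. dre-miR-20a-5p, a guide strand with the miR-17 seed, had normalized counts of 2469, 2991 and 2704 in stage IIIa and 1803, 2199 and 2104 in stage IIIb, so every stage IIIb sample was below every stage IIIa sample. dre-miR-19a-3p had 1744, 3031 and 2764 in stage IIIa and 1969.8, 1979.5 and 1741 in stage IIIb. dre-miR-17a-5p had 1521, 1909.6 and 2028 in stage IIIa and 1091, 1498 and 1595 in stage IIIb. In both of these the highest values were those of stage IIIa replicates 2 and 3, and the stages overlapped through stage IIIa replicate 1. dre-miR-19d-3p, the member within mcm7, had 974, 1207 and 1359 in stage IIIa and 823, 936 and 1303 in stage IIIb. dre-miR-20a-5p and dre-miR-19a-3p, with means of 2378 and 2205 over the 6 samples, changed places between samples, and their order is within the spread.

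The 3 miRNAs from the locus with mir363 were lower. dre-miR-19c-3p had normalized counts of 279, 426 and 613 in stage IIIa and 386, 508 and 674 in stage IIIb. dre-miR-18c had 53.6, 82.3 and 141 in stage IIIa and 96.1, 129 and 181 in stage IIIb. In both, the value was lowest in stage IIIa replicate 1 and highest in stage IIIb replicate 3, and the stages overlapped. dre-miR-20b-5p had 83.5, 55.4 and 126 in stage IIIa and 53.7, 83.0 and 178 in stage IIIb, which also overlapped. The lowest member by its mean, 76.2 over the 6 samples, was dre-miR-18a, with 70.1, 92.7 and 124 in stage IIIa and 50.1, 57.3 and 62.5 in stage IIIb. The stages did not overlap. dre-miR-18a and dre-miR-18c have the same seed and had stage IIIa means of 95.7 ± 27.3 and 92.4 ± 44.8 normalized counts (SD, n = 3), whereas their stage IIIb means were 56.6 ± 6.20 and 135 ± 43.0 (SD, n = 3).

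The opposite arm, dre-miR-20a-3p, had 123, 57.6 and 152 normalized counts in stage IIIa and 98.2, 100.4 and 116 in stage IIIb. dre-miR-20a-5p exceeded it 17.8-fold to 21.9-fold in 5 samples and 51.9-fold in stage IIIa replicate 2, where dre-miR-20a-3p was lowest. A read covers a whole mature miRNA, so the counts were not divided by length.

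The depth behind the low members was limited. In each sample the low values fell mostly on multiples of a fixed step, which was read as the normalized value of a single read. On the listed miRNAs this gave from 1129114 reads in stage IIIa replicate 1 to 9045233 in stage IIIb replicate 3. Of the 60 values of the 10 members, 50 came out as whole reads and the other 10 lay midway between whole numbers, at a tolerance of 0.01. These 10 values belonged to 5 members, among them dre-miR-17a-5p in 3 samples. dre-miR-18c rested on 34 to 518 reads, dre-miR-18a on 44.5 to 231.5, dre-miR-20b-5p on 53 to 508 and dre-miR-20a-3p on 78 to 332, and the lowest number for each of the 4 was that of stage IIIa replicate 1. The 6 other members rested on at least 177 reads in every sample. Reads without molecular identifiers are not independent molecules, and the recovered reads entered no comparison between the stages.

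To compare the stages, log2(normalized count + 1) of all 289 miRNAs was fitted with limma, with Benjamini-Hochberg adjustment. Of the 10 members, 0 passed an adjusted p of 0.05 in limma, against 13 of 289 (4.5%), and 0 had an unadjusted p of 0.05 or less, against 43 of 289 (14.9%). With an equal-variance test on the untransformed counts, the kind of test that the methods of the paper name, 1 of the 10, dre-miR-20a-5p, had an unadjusted p of 0.05 or less, against 32 of 289 (11.1%). The paper lists dre-miR-20a-5p among its differentially expressed miRNAs, and it called fewer of the 289 than this test did. dre-miR-20a-5p had stage means of 2721 ± 261 and 2036 ± 207 normalized counts, IIIa before IIIb (SD, n = 3). Its log2 fold change was -0.42 (SE 0.31, 95% confidence interval -1.09 to 0.25, limma adjusted p = 0.554). That of dre-miR-18a was -0.71 (SE 0.47, 95% confidence interval -1.74 to 0.31, limma adjusted p = 0.525). Fold changes on this scale understate those of low miRNAs.

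The stages did not overlap for 2 of the 10 members, dre-miR-18a and dre-miR-20a-5p, against 57 of 289 (19.7%), and both were lower in stage IIIb, as were 23 of 289 (7.96%). The log2 fold change was below 0 for 6 of the 10 and for 122 of the 289 (42.2%), and after rescaling to equal totals for 9 of the 10 and 173 of the 289 (59.9%). Its median was -0.14 over the 10 and 0.15 over the 289. The deposited totals ranged from 1779302 to 3166619 normalized counts, and rescaling moved the median of the 289 to -0.16 and that of the 10 to -0.45. The calls over all miRNAs at an unadjusted p of 0.05 or less went from 28 higher and 15 lower to 20 higher and 42 lower.

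As shares of the total, 4 of the 10 members no longer overlapped between the stages, all lower in stage IIIb, against 53 of 289 (18.3%) in this direction and 84 (29.1%) in both. These were dre-miR-17a-5p, dre-miR-18a, dre-miR-19d-3p and dre-miR-20a-5p. dre-miR-20a-5p held 0.139%, 0.136% and 0.132% of the counts in stage IIIa and 0.0991%, 0.0823% and 0.0665% in stage IIIb. dre-miR-17a-5p held 0.0855%, 0.0869% and 0.0987% in stage IIIa and 0.0600%, 0.0560% and 0.0504% in stage IIIb. The same 4 members had an unadjusted p of 0.05 or less in limma after rescaling, where 42 of 289 (14.5%) did so in this direction and 62 (21.5%) in both. Shares depend on the most abundant miRNAs, and dre-miR-92a-3p alone took 13.998% of stage IIIa replicate 1 and 5.08% to 7.54% of the other samples. Among the other abundant miRNAs, dre-miR-22a-3p rose from a mean of 90496 to 255005 normalized counts (limma adjusted p = 0.0252), and dre-miR-202-5p had means of 342150 and 478662 (limma adjusted p = 0.587). Of the 10, 0 passed the adjusted threshold, with the smallest limma adjusted p = 0.0680 for dre-miR-17a-5p (log2 fold change -0.70, SE 0.18) and 0.0836 for dre-miR-20a-5p (log2 fold change -0.73, SE 0.20). Whether the unadjusted test called these 4 thus depended on the scaling of the libraries.

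Measured against the median of all 289 miRNAs, which removes most of this effect, the log2 fold change was -0.87 for dre-miR-18a, -0.57 for dre-miR-20a-5p, -0.54 for dre-miR-17a-5p and -0.52 for dre-miR-19a-3p. It was -0.37 for dre-miR-19d-3p, -0.21 for dre-miR-19b-3p and -0.12 for dre-miR-20a-3p. The members of the locus with mir363 stood at 0.46 for dre-miR-18c, 0.13 for dre-miR-19c-3p and -0.0041 for dre-miR-20b-5p. All 7 other members were thus below those of this locus, a description that was not tested and that single libraries changed. Without stage IIIa replicate 1, the deposited log2 fold change of dre-miR-20a-3p (0.16) was above that of dre-miR-19c-3p (-0.0047). Without stage IIIa replicate 2, dre-miR-19b-3p (0.081) was above dre-miR-20b-5p (-0.14), and without stage IIIb replicate 3, dre-miR-20b-5p (-0.32) was below dre-miR-19a-3p, dre-miR-19b-3p and dre-miR-20a-3p. As deposited, the log2 fold changes of dre-miR-18c, dre-miR-19c-3p and dre-miR-20b-5p were 0.61 (SE 0.49), 0.29 (SE 0.40) and 0.15 (SE 0.55), with limma adjusted p values of 0.590, 0.770 and 0.924. The last 2 of these were below 0 after rescaling to equal totals, at -0.026 and -0.16.

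**Figure D2:**
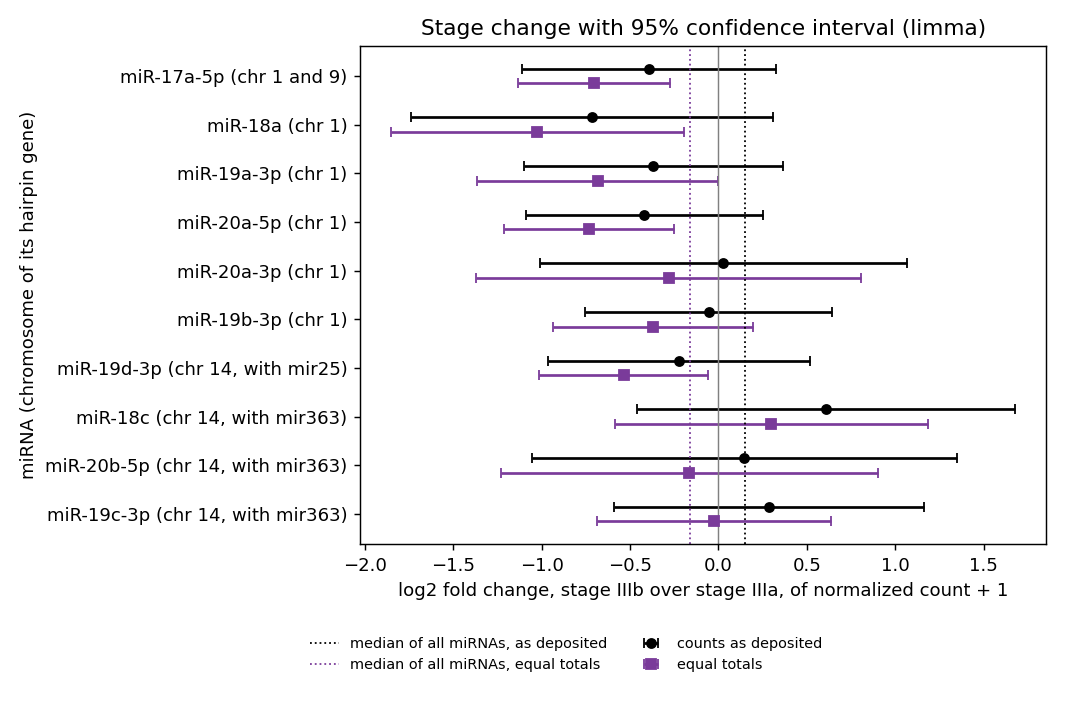
Log2 fold change of normalized count + 1, stage IIIb over stage IIIa (x axis), of the 10 miRNAs (y axis, with the chromosome of the hairpin gene). Points with bars are limma estimates with 95% confidence intervals (3 samples per stage), black circles for the counts as deposited and purple squares after rescaling to equal totals, and dotted lines are the medians of the 289 miRNAs at 0.15 and -0.16. All intervals of the deposited counts include 0.

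The other products of these clusters varied in direction. dre-miR-363-3p, from the locus of dre-miR-18c, had stage means of 341 ± 112 and 477 ± 152 (SD, n = 3), with a log2 fold change of 0.49 (limma adjusted p = 0.590). dre-miR-93, which has the miR-17 seed, had stage means of 1409 ± 278 and 1228 ± 93.2 (SD, n = 3), a log2 fold change of -0.18 (limma adjusted p = 0.841). dre-miR-25-5p, from the hairpin next to dre-mir-19d, had 33.1, 26.9 and 37.1 normalized counts in stage IIIa and 67.8, 53.1 and 100.1 in stage IIIb (log2 fold change 1.13, limma adjusted p = 0.339). Its stages did not overlap, as for 34 of 289 (11.8%) with stage IIIb higher. The other arm of this hairpin, dre-miR-25-3p, was far more abundant, with stage means of 25453 ± 3317 and 27227 ± 4544 (SD, n = 3). Its stages overlapped (log2 fold change 0.09, limma adjusted p = 0.914). dre-miR-92a-3p had 249073 normalized counts in stage IIIa replicate 1 and 94195 to 160783 in the other samples. Over all samples its mean count of 153861 lay far above those of its neighbours on chromosome 1, of which the highest was dre-miR-19b-3p. The hairpin genes mir92a-1 and mir92a-2 lie on chromosomes 1 and 9, so this count need not come from chromosome 1 alone. Of the 8 listed products of miR-92, miR-363, miR-25 and miR-93, 0 passed an adjusted p of 0.05 in limma, against 13 of 289 (4.5%). An unadjusted p of 0.05 or less was reached by 0 of the 8, against 43 of 289 (14.9%). The 8 were taken by name and include dre-miR-92b-3p, whose hairpin was not placed at any of the loci above.

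A ratio of 2 miRNAs within a sample does not depend on how the sample was scaled. It was computed for the 10 pairs of members with the same seed and for the 2 arms of miR-20a, 11 ratios in all. The ratios printed are of the counts themselves. Their log2 changes and tests used count + 1, which leaves some dependence on scaling for low members. In 3 of the 11, the stages did not overlap, each with an exact permutation p = 0.10 (two-sided), which is the lowest that 3 samples against 3 can give, or 0.367 after adjustment over the 11. The share of separated ratios over pairs of all 289 miRNAs was not computed, so this count is a description. Single miRNAs were separated in 57 of 289 (19.7%). The ratio of dre-miR-18a to dre-miR-18c was 1.31, 1.13 and 0.880 in stage IIIa and 0.522, 0.445 and 0.345 in stage IIIb. On the log2 scale it changed by -1.32 (SE 0.24), the largest of the 11. With pseudocounts of 0.1 and 10 the change was -1.34 and -1.19. Leaving out each sample in turn gave -1.48 to -1.16. dre-miR-18a was thus near or above its seed mate in stage IIIa and well below it in each stage IIIb sample. The authors kept miRNAs that reached 100 counts in every replicate of stage IIIa or of stage IIIb. By the recovered reads dre-miR-18c met this in stage IIIb only, where its mean was higher, and dre-miR-18a in neither stage. Since dre-miR-18a is listed all the same, these reads need not be the counts that the rule used. In stage IIIa replicate 1 the ratio rested on 44.5 against 34 reads, so it is given as a description.

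The other 2 separated ratios were within the miR-19 group. The ratio of dre-miR-19a-3p to dre-miR-19b-3p was 0.251, 0.261 and 0.2504 in stage IIIa and 0.227, 0.197 and 0.191 in stage IIIb, a change of -0.31 (SE 0.078) on the log2 scale. These neighbours on chromosome 1 differ by T11C only, and the part of reads split between them in this ratio was not tested. The ratio of dre-miR-19c-3p to dre-miR-19d-3p was 0.286, 0.353 and 0.451 in stage IIIa and 0.4695, 0.543 and 0.517 in stage IIIb, a change of 0.51 (SE 0.20). The part of reads split between either of these and dre-miR-19b-3p in this ratio was not tested. The ratio of dre-miR-20a-5p to dre-miR-20b-5p was 29.6, 54.0 and 21.5 in stage IIIa and 33.6, 26.5 and 11.8 in stage IIIb, which overlapped (change -0.57, SE 0.59, exact permutation p = 0.50). That of dre-miR-17a-5p to dre-miR-20a-5p was 0.616, 0.639 and 0.750 in stage IIIa and 0.605, 0.681 and 0.758 in stage IIIb, a change of 0.028 (SE 0.13) on the log2 scale (exact permutation p = 0.90). Without stage IIIa replicate 3, 5 of the 11 ratios did not overlap, though stages with fewer samples separate more readily.

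**Figure D3:**
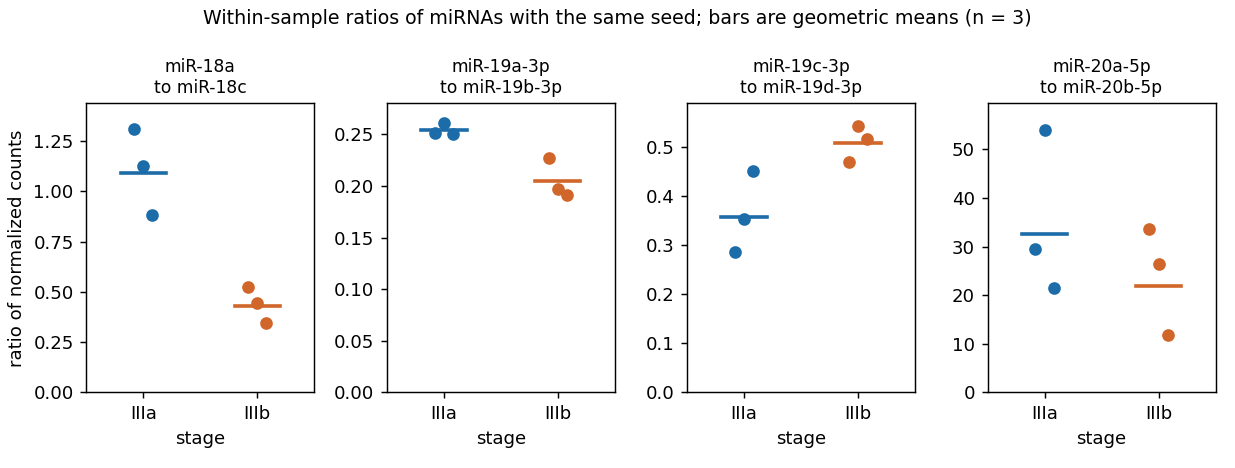
Ratio of the normalized counts of 2 miRNAs with the same seed (y axis, linear from 0) in the 3 samples of each stage (x axis), for 4 of the pairs. Points are samples and bars are geometric means. The ratio of dre-miR-18a to dre-miR-18c lies between 0.880 and 1.31 in stage IIIa and between 0.345 and 0.522 in stage IIIb, while that of dre-miR-20a-5p to dre-miR-20b-5p overlaps. By the recovered reads dre-miR-18c met the listing rule of the authors in stage IIIb only. dre-miR-18a and dre-miR-20b-5p met it in neither stage yet are listed, so these reads need not be the counts that the rule used.

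Shared variation was measured by the correlation of log2(normalized count + 1) over the 6 samples, for all 45 pairs of members. The 6 samples share the scaling of each library and the difference between the stages, which both enter these values. Pearson's r ranged from -0.40 to 0.97 with a median of 0.47, whereas the median over all 41616 pairs of the 289 miRNAs was 0.19. After rescaling to equal totals these medians were 0.38 and 0.087. Of the 45 pairs, 6 had an unadjusted exact permutation p under 0.05 for r, and 0 did after adjustment over the 45. The share of the 41616 pairs under this unadjusted p is not given here, so the 6 are a description.

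The closest pair was dre-miR-18c and dre-miR-19c-3p, from the same locus on chromosome 14 but with different seeds, with r = 0.97 (exact permutation p = 0.0028, adjusted p = 0.125) and Spearman's rho = 0.94 (exact permutation p = 0.0167, adjusted p = 0.250). Without the 2 samples farthest from the median of dre-miR-18c, r was 0.87, and with equal totals it was 0.90. dre-miR-17a-5p and dre-miR-20a-5p gave r = 0.90 (exact permutation p = 0.0194, adjusted p = 0.219) and rho = 0.77 (exact permutation p = 0.103, adjusted p = 0.514), with r = 0.82 without the 2 farthest samples. dre-miR-17a-5p and dre-miR-18a gave r = 0.90 (exact permutation p = 0.0167, adjusted p = 0.219) and rho = 0.94 (exact permutation p = 0.0167, adjusted p = 0.250), with r = 0.91 without the 2 farthest samples. These pairs kept an r above 0.8 without the farthest samples. Of the 3 other pairs, dre-miR-17a-5p with dre-miR-19d-3p gave r = 0.87 (rho = 0.94, 0.61 for r without the 2 farthest samples). dre-miR-18a with dre-miR-20a-5p gave r = 0.85 (rho = 0.89, 0.92 for r without them), and dre-miR-19a-3p with dre-miR-19b-3p gave r = 0.83 (rho = 0.83, 0.59 for r without them). For deviations of the deposited counts from the stage means, r was 0.51 for dre-miR-18a with dre-miR-20a-5p. In the other pairs named here, r of these deviations was 0.80 to 0.99. The deviations still carry the scaling of each library.

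The 10 pairs with the same seed had a median r of 0.50, and the 35 pairs with different seeds one of 0.46. The 13 pairs from the same locus had a median of 0.66, and the 15 pairs between the chromosome 1 members and the locus with mir363 one of 0.20, with dre-miR-17a-5p left out of both because it has hairpins on 2 chromosomes. The last 2 medians were 0.78 and 0.032 after rescaling to equal totals, and 0.63 and 0.52 for deviations of the deposited counts from the stage means, which still carry the scaling of each library. These medians are descriptions, since pairs that share a member are not independent. dre-miR-18a and dre-miR-18c gave r = 0.037 over the 6 samples (exact permutation p = 0.939, adjusted p = 0.996) and rho = -0.029 (exact permutation p = 1). The deviations of their deposited counts from the stage means gave r = 0.97. This r of 0.97 still carries the scaling of each library. As shares of the total, both were highest in replicate 3 within stage IIIa. Within stage IIIb, replicate 3 had the lowest share of dre-miR-18a and the highest of dre-miR-18c. The correlation of the deviations after rescaling to equal totals was not computed. dre-miR-20a-3p and its hairpin partner dre-miR-20a-5p gave r = -0.25 (exact permutation p = 0.658, adjusted p = 0.881) and rho = 0.086 (exact permutation p = 0.919). The sign of this r was not stable. Without the 2 farthest samples, stage IIIa replicates 2 and 3, r was 0.74. With equal totals over the 6 samples it was 0.35 (exact permutation p = 0.471).

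**Figure D4:**
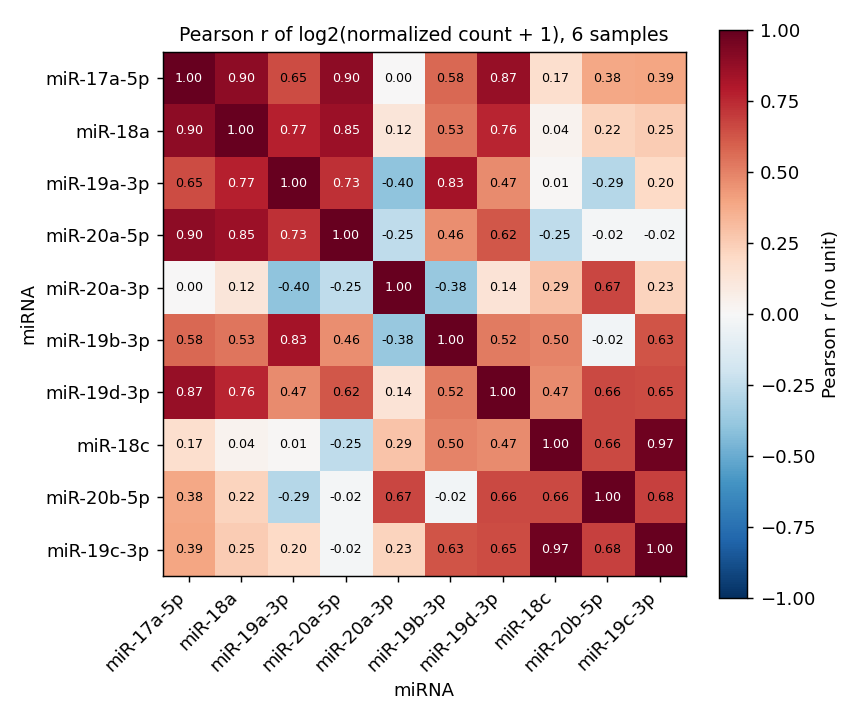
Pearson's r of log2(normalized count + 1) over the 6 samples for each pair of the 10 miRNAs (both axes), from -1 in blue to 1 in red. dre-miR-18c, dre-miR-20b-5p and dre-miR-19c-3p, from 1 locus, form a block in the lower right corner with r from 0.66 to 0.97. After rescaling to equal totals, dre-miR-20b-5p had r = 0.40 with dre-miR-18c and 0.42 with dre-miR-19c-3p.

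Outside the group, the 5 listed miRNAs whose counts ran most like those of dre-miR-20a-5p over the 6 samples were dre-miR-181a-3p (r = 0.89), dre-miR-16a (r = 0.89), dre-miR-2188-3p (r = 0.88), dre-miR-142a-3p (r = 0.87) and dre-miR-451 (r = 0.85). These are descriptions, and all 5 were lower in every stage IIIb sample than in any stage IIIa sample, against 23 of 289 (7.96%). The 5 were chosen for their likeness to dre-miR-20a-5p, which was separated in the same direction, so this is no independent result. dre-miR-451 and dre-miR-2188-3p are miRNAs of red blood cells and dre-miR-142a-3p is one of leukocytes. All 6 listed miRNAs of the red blood cell list fell in stage IIIb (limma adjusted p under 0.05 for each), and their summed normalized counts were 19142 to 32402 in stage IIIa and 2863 to 5142 in stage IIIb. Of the 7 on the leukocyte list, 0 passed the adjusted test and 1, dre-miR-142a-3p, had an unadjusted limma p of 0.05 or less, with sums of 18726 to 27728 and 15178 to 32493. The endothelial miRNAs dre-miR-126a-3p and dre-miR-126b-5p summed to 24940.0 to 48079 in stage IIIa and 32978 to 58353 in stage IIIb, and neither passed the unadjusted test. The liver miRNA dre-miR-122 was listed at 0 in stage IIIa replicate 1 and had 112 and 78.5 normalized counts in the other stage IIIa samples, against 165, 784 and 71.8 in stage IIIb. It was higher in stage IIIb by the unadjusted limma test, though not by the adjusted one (limma adjusted p = 0.314). The muscle miRNA dre-miR-133a-3p lay between 32.1 and 161 normalized counts in all samples. The 3 miR-430 miRNAs of the oocyte or embryo list summed to 260 to 997 in stage IIIa and 381 to 1489 in stage IIIb. The paper cites earlier detection of miR-430b in zebrafish follicular cells, so this list does not single out oocytes. dre-miR-202-5p, a miRNA of the gonads, was the highest of all with a mean count of 410406. The part of differing blood cell RNA in the lower shares of dre-miR-20a-5p, dre-miR-17a-5p and dre-miR-18a was not tested.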

How the data were processed

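Small RNA of follicular cells was sequenced in 3 samples of stage IIIa and 3 of stage IIIb. The authors processed the reads with ACGT101-miR and kept unique sequences of 18 to 26 nt. They aligned these by BLAST to zebrafish precursors of miRBase 22.0, with 1 mismatch and differing lengths at both ends allowed. The submitters' notes name the build GRCz11. The deposited values are normalized counts, a signal that the authors obtained by dividing read counts by a library size parameter, for 289 miRNAs in each sample. The paper states that it kept miRNAs reaching 100 counts in every replicate of stage IIIa or of stage IIIb. A miRNA could thus be listed through 1 stage only, and shares over the 289 are those of this kept list. By the recovered reads, dre-miR-18c and dre-miR-20a-3p met this rule in stage IIIb only, and dre-miR-18a and dre-miR-20b-5p in neither stage. Since dre-miR-18a and dre-miR-20b-5p are listed all the same, these reads need not be the counts that the rule used. Reads were not used here, and how the authors shared reads between similar miRNAs is as they made it.

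A pseudocount of 1 was added, and the log2 values of all listed miRNAs were compared between stages with limma 3.58.1 (R 4.3.3). The test was two-sided, with a mean-variance trend and no filter beyond that of the authors. Single ratios used exact permutation tests over the 20 assignments of samples to stages, and correlations used all 720 pairings (Python 3.11.15, scipy 1.17.1). Replicates are separately labelled pools of follicles, and the sources used here do not say whether fish were shared, so p-values measure the spread between these samples. To look for a repeated library, the recovered reads of every 2 samples of a stage were compared. Chi-square over its degrees of freedom was 250.0 or higher, against counting error only, and all samples were kept as separate. The step behind the recovered reads made 82.8% to 85.9% of values under 400 whole. Gene order came from a RefSeq table of GRCz12tu, another build, so no coordinates are given. The 10 miRNAs, the lists, the pairs and the tests were chosen with earlier results of these data known. The named miRNAs are the members, miRNAs with the same seed, products of miR-92, miR-363, miR-25 and miR-93 by name, the 5 most like dre-miR-20a-5p, and marker lists. Alternatives were pseudocounts of 0.1 and 10, a minimum mean of 100 normalized counts, 3 other scalings, no trend, a replicate block, an equal-variance test, and each replicate left out.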

Additional observations from a re-analysis of the deposited data

How the results depend on the processing

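In all settings tried, 0 of the 10 members passed an adjusted p of 0.05 (0 in each fit without 1 replicate, too). At an unadjusted p of 0.05 or less there were 4 with equal totals, 4 with median-of-ratios size factors, 3 with upper quartile scaling and 1 with the equal-variance test, against 0 as reported, where 62, 67, 60 and 32 of the 289 miRNAs did so. Over all 289 miRNAs the calls at an adjusted p went from 13 to 0 with the equal-variance test and to 7 to 12 without 1 replicate (7 without stage IIIa replicate 2 or stage IIIb replicate 3), and those at an unadjusted p from 43 to 29 to 62 without 1 replicate. The log2 fold changes of dre-miR-17a-5p, dre-miR-18a, dre-miR-18c, dre-miR-19a-3p, dre-miR-19d-3p and dre-miR-20a-5p kept their sign in every setting that gave a value. Those of the other members turned in some settings. With equal totals, median-of-ratios factors and upper quartile scaling, dre-miR-20a-3p had -0.28, -0.14 and -0.18 and dre-miR-20b-5p -0.16, -0.022 and -0.057, dre-miR-19c-3p had -0.026 with equal totals, and dre-miR-20a-3p had -0.079 with the equal-variance test. Without 1 replicate the ranges were -0.29 to 0.081 for dre-miR-19b-3p, -0.0047 to 0.56 for dre-miR-19c-3p, -0.38 to 0.31 for dre-miR-20a-3p and -0.32 to 0.54 for dre-miR-20b-5p. The cause was not tested. The filter at a mean of 100 left out dre-miR-18a and dre-miR-20b-5p. The ratio of dre-miR-18a to dre-miR-18c changed by -1.48 to -1.16 without 1 replicate. The change turned without 1 replicate for the ratios of dre-miR-17a-5p to dre-miR-20a-5p (-0.052 to 0.11), dre-miR-19a-3p to dre-miR-19d-3p (-0.32 to 0.11) and dre-miR-20a-5p to dre-miR-20a-3p (-0.73 to 0.034), and 3 to 5 of the 11 ratios were separated (5 without stage IIIa replicate 3). The share of the members was 0.760% to 0.857% without 1 replicate. The fit with the replicate block called 9 miRNAs by the adjusted p (4 higher, 5 lower) and 59 by the unadjusted one, with 0 members among either. Across miRNAs, deviations from the stage means had r = 0.10, 0.28 and -0.03 between samples of equal number, and 3 of 6 samples correlated best with their own number, so the numbers were not taken to pair the samples. Depth limits dre-miR-18a, dre-miR-18c, dre-miR-20a-3p and dre-miR-20b-5p most.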
